A study of Mus musculus with 17 samples.

Results

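The genes described here are 33 genes of the hypoxia response and of glycolysis, out of 23284 gene symbols in the count tables of a series of mouse tumours. They were taken by their symbols: 3 transporters of glucose and lactate, 14 glycolytic enzymes, 2 regulators of glucose use, 2 hypoxia-inducible factors, 2 HIF prolyl hydroxylases and 10 other genes known as HIF targets. All 33 were found in the tables, and all 33 passed the filter on low counts in every comparison. Measured was the RNA of 17 tumours labelled as neuroendocrine tumours of the pituitary. In 8 tumours the labels give the genotype Rb1/Trp53/Crebbp and in 9 the genotype Rb1/Trp53, so that engineered Rb1 and Trp53 are common to both groups. Rb1 and Trp53 encode the retinoblastoma protein and p53, and Crebbp encodes the histone acetyltransferase CBP, a coactivator of transcription. The sources used here give neither the alleles and the Cre driver nor how old or how many the mice were, so p-values measure the spread between these samples, which may share a mouse.

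In the hypoxia response, the alpha subunits encoded by Hif1a and Epas1 are hydroxylated by the prolyl hydroxylases Egln1 and Egln3 when oxygen is present, bound by the Vhl protein and degraded. When oxygen is short they persist, pair with the protein of Arnt or Arnt2, bind DNA at the core motifs ACGTG and GCGTG, and recruit the related coactivators CBP and p300 (Ep300). Many of their target genes raise glucose uptake, glycolysis and lactate export, and others act on blood vessels, acid balance, collagen and mitochondria. In solid tumours the response is known from regions with a poor blood supply, and HIF also acts in tumour cells with changed signalling.

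The libraries fell into 2 sets by hormone gene, which are not groups of the study: 10 had more counts for Pomc, the precursor of ACTH, than for Calca, the calcitonin gene, and 7 had more Calca. Values are normalised CPM, that is, counts scaled to 1 common library total after TMM normalisation, and are compared between libraries and not between genes, since they are not corrected for gene length. Pomc stood at 93441 CPM or above in the Pomc-high set and at 64.3 CPM or below in the Calca-high set, so this pituitary hormone gene is nearly absent from the Calca-high libraries although their label is the same. The sum of 6 thyroid follicle genes was 929 to 16826 CPM in the Calca-high and 7.05 to 161 CPM in the Pomc-high libraries. For 6 lung epithelial genes it was 66.8 to 351 CPM and 1.98 to 16.1 CPM. The Calca-high libraries may thus hold another tissue than their label gives, which was not tested. The Pomc-high set held 4 Rb1/Trp53/Crebbp tumours (T5 to T8) and 6 Rb1/Trp53 tumours (T2 and T5 to T9). The Calca-high set held 4 Rb1/Trp53/Crebbp tumours (T1 to T4) and 3 Rb1/Trp53 tumours (T1, T3 and T4). Library totals on genes were 8328297 to 28140755, with a median of 13456360, and the lowest count of any of the 33 genes in any library was 12, for Car9. Whole-gene counts of Crebbp were 42.8 to 62.4 CPM in Rb1/Trp53/Crebbp and 39.6 to 116 CPM in Rb1/Trp53 tumours of the Pomc-high set, and 67.4 to 93.4 CPM in Rb1/Trp53/Crebbp and 48.2 to 55.5 CPM in Rb1/Trp53 tumours of the Calca-high set. A whole-gene count cannot show the loss of single exons and is therefore no check of the genotype.

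Promoter sequences of 30 of the 33 genes, in 40 windows, were found in the RefSeq table of build GRCm38.p6. Slc2a3, Ndrg1 and Epas1 were not matched. ACGTG or GCGTG, on either strand, occurred in the 250 bases upstream of the start in 32 of 40 windows (80%), against 38.6% of 32851 windows of all genes and 54.9% of 12784 windows of genes tested in the Pomc-high libraries. For ACGTG alone the shares were 55% against 16.6% and 21.2%, and for GCGTG alone 52.5% against 28.2% and 43.9%. CACGTG holds ACGTG on both strands, and a match is a description of the letters, not a binding site. The 150 bases before the start are shown for 5 of the genes that passed the test. Car9, Pfkfb3 and Ero1l passed it in both sets in opposite directions. Hk2 and P4ha2 passed it in the Pomc-high set and were 1 each among the enzymes and the other targets. Capitals mark ACGTG and GCGTG or their reverse complements CACGT and CACGC, and each sequence runs 5′ to 3′ on the strand of its gene.

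Car9 (chr4:43506876-43507025, plus strand): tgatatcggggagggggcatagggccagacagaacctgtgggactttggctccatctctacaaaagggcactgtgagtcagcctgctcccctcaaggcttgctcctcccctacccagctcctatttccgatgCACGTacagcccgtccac
Pfkfb3 (chr2:11553930-11554079, minus strand): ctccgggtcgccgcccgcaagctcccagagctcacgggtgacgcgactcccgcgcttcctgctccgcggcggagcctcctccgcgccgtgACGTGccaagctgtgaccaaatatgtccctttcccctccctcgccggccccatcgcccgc
Ero1l (chr14:45318573-45318722, minus strand): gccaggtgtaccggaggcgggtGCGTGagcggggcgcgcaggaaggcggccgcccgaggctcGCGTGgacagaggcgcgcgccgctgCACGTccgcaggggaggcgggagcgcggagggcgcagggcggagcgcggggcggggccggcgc
Hk2 (chr6:82774455-82774604, minus strand): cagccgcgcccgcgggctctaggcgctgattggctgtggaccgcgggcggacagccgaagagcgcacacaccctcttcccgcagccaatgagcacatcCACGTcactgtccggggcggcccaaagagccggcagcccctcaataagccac
P4ha2 (chr11:54100774-54100923, plus strand): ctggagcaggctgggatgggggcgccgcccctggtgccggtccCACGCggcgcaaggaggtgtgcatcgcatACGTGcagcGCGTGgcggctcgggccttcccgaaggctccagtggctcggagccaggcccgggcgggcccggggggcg

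Within these 150 bases Car9, Pfkfb3 and Hk2 each held 1 ACGTG and 0 GCGTG, while Ero1l and P4ha2 each held 1 ACGTG and 2 GCGTG. Not every gene that passed the test held a motif there. Of the others that passed in the Pomc-high set, Egln3, Eno2 and both windows of Vegfa held 0 of either motif. Adm held 0 ACGTG and 2 GCGTG, and Slc2a1 held 1 of each. The Pfkfb3 sequence is that of window 1 of the table, and Ero1l is listed there under the symbol Ero1a.

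In the Pomc-high tumours the genotype comparison asked whether the genes differed with the Crebbp allele where Pomc dominated. Of the 33 genes, 10 fell and 0 rose in Rb1/Trp53/Crebbp tumours relative to Rb1/Trp53 tumours (edgeR quasi-likelihood test, adjusted p under 0.05 over 14010 genes). Among all genes tested, 5.26% fell and 3.15% rose. The genes that fell were the glucose transporter gene Slc2a1, the enzymes Hk2 and Eno2, the glycolytic regulator Pfkfb3, the hydroxylase Egln3 and the target genes Vegfa, Adm, Car9, P4ha2 and Ero1l. The median log2 fold change of the 33 genes was -0.21, against 0.013 over all genes tested. Fewer cells of a type and less RNA per cell cannot be told apart in such bulk samples.

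Slc2a1, which encodes the basal glucose transporter of many tissues, had 125, 117, 167 and 126 CPM in the 4 Rb1/Trp53/Crebbp tumours, and 157 to 237 CPM with a median of 193 CPM in the 6 Rb1/Trp53 tumours. Only T7 of the Rb1/Trp53/Crebbp tumours reached into the range of the Rb1/Trp53 tumours, and the log2 fold change was -0.52 ± 0.13, adjusted p = 0.0276. Hk2, the hexokinase that HIF is known to induce, had 28.9, 27.3, 42.9 and 26.9 CPM in the 4 Rb1/Trp53/Crebbp tumours, and 52.9 to 74.9 CPM with a median of 65.4 CPM in the 6 Rb1/Trp53 tumours. No Rb1/Trp53/Crebbp tumour came as high as the lowest Rb1/Trp53 tumour, and Hk2 fell by 1.04 on the log2 scale (SE 0.15, adjusted p = 0.00159). Hk1, the constitutive hexokinase, did not pass the test and averaged 179 ± 29.7 CPM (SD, n = 4) in Rb1/Trp53/Crebbp tumours and 185 ± 6.29 CPM (SD, n = 6) in Rb1/Trp53 tumours (log2 fold change -0.027 ± 0.10, adjusted p = 0.902). The other transporter genes, Slc2a3 for neuronal-type glucose uptake (-0.12 ± 0.13) and Slc16a3 for lactate export (-0.046 ± 0.12), did not pass the test.

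Eno2, the neuronal enolase, had 221, 193, 229.6 and 289 CPM in the 4 Rb1/Trp53/Crebbp tumours, and 280.3 to 345 CPM with a median of 314 CPM in the 6 Rb1/Trp53 tumours. Its groups overlapped through T8, and the log2 fold change was -0.41 ± 0.11, adjusted p = 0.0433. The other 12 glycolytic enzymes did not pass the test, with log2 fold changes from -0.29 (Pgam1) to 0.059 (Pfkl). Pgam1, which encodes a phosphoglycerate mutase, nevertheless had no overlap, with 452 to 579.8 CPM in Rb1/Trp53/Crebbp and 601 to 659.7 CPM in Rb1/Trp53 tumours (adjusted p = 0.0774). Gapdh, Tpi1 and Hk1 were the enzymes closest to 0, at -0.024, -0.0070 and -0.027. Pfkfb3, whose product makes the activator of phosphofructokinase, had 29.4, 30.8, 45.7 and 43.8 CPM in the 4 Rb1/Trp53/Crebbp tumours, and 50.1 to 74.5 CPM with a median of 54.9 CPM in the 6 Rb1/Trp53 tumours. Its groups did not overlap, and it fell by 0.62 (SE 0.15, adjusted p = 0.0248). Pdk1, a kinase that inhibits pyruvate dehydrogenase, averaged 115 ± 5.27 CPM (SD, n = 4) in Rb1/Trp53/Crebbp tumours and 116 ± 12.6 CPM (SD, n = 6) in Rb1/Trp53 tumours (0.0059 ± 0.095, adjusted p = 0.978).

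Neither alpha subunit gene passed the test: Hif1a averaged 77.1 ± 11.6 CPM (SD, n = 4) in Rb1/Trp53/Crebbp tumours and 71.7 ± 7.73 CPM (SD, n = 6) in Rb1/Trp53 tumours (0.13 ± 0.11, adjusted p = 0.524). For Epas1 the value was -0.076 ± 0.35 (adjusted p = 0.921), and its Rb1/Trp53/Crebbp tumours spanned 10.3 to 39.4 CPM. Egln3, the hydroxylase most inducible by hypoxia in many cells, had 33.2, 25.97, 37.98 and 27.7 CPM in the 4 Rb1/Trp53/Crebbp tumours, and 48.96 to 74.7 CPM with a median of 60.00 CPM in the 6 Rb1/Trp53 tumours. All Rb1/Trp53/Crebbp tumours lay below all Rb1/Trp53 tumours (-0.92 ± 0.14, adjusted p = 0.00248). Egln1, the main hydroxylase in normal oxygen, was separated in the same direction by a small step, with 106 to 123 CPM in Rb1/Trp53/Crebbp and 124 to 142 CPM in Rb1/Trp53 tumours, and did not pass the test (-0.19 ± 0.080, adjusted p = 0.156).

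Among the 10 other targets, 5 fell. Car9, the cell-surface carbonic anhydrase used as a hypoxia marker, had 1.37, 0.888, 1.43 and 1.62 CPM in the 4 Rb1/Trp53/Crebbp tumours, and 2.76 to 15.6 CPM with a median of 6.41 CPM in the 6 Rb1/Trp53 tumours. The level is low, the Rb1/Trp53 tumours were spread widely, and the groups did not overlap (-2.40 ± 0.50, adjusted p = 0.0122). Adm, which encodes the vasodilator peptide adrenomedullin, had 13.7, 15.3, 32.6 and 12.8 CPM in the 4 Rb1/Trp53/Crebbp tumours, and 30.5 to 76.03 CPM with a median of 51.8 CPM in the 6 Rb1/Trp53 tumours. T7 overlapped the lowest Rb1/Trp53 tumour, and Adm fell by 1.48 (SE 0.31, adjusted p = 0.0155). Vegfa, the vascular endothelial growth factor gene, had 125, 159, 169 and 130.2 CPM in the 4 Rb1/Trp53/Crebbp tumours, and 213 to 296 CPM with a median of 219 CPM in the 6 Rb1/Trp53 tumours. The groups stood apart (-0.66 ± 0.12, adjusted p = 0.00615).

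P4ha2, a catalytic subunit of collagen prolyl 4-hydroxylase, had 77.5, 81.8, 87.4 and 79.4 CPM in the 4 Rb1/Trp53/Crebbp tumours, and 95.7 to 126 CPM with a median of 118 CPM in the 6 Rb1/Trp53 tumours (-0.48 ± 0.089, adjusted p = 0.00601). Ero1l, the oxidase that supports disulfide bonds in the endoplasmic reticulum, had 99.04, 104, 109.7 and 105 CPM in the 4 Rb1/Trp53/Crebbp tumours, and 137 to 185 CPM with a median of 152 CPM in the 6 Rb1/Trp53 tumours (-0.56 ± 0.093, adjusted p = 0.00342). Both genes were among the least variable of the 33 in the Rb1/Trp53/Crebbp tumours, and neither overlapped between genotypes. Of the 5 targets that did not pass the test, the mitophagy gene Bnip3 (-0.42 ± 0.13), P4ha1 (-0.39 ± 0.16), Ankrd37 (-0.26 ± 0.14) and the mTORC1 inhibitor Ddit4 (-0.26 ± 0.10) had log2 fold changes below 0. Ndrg1, a stress-response gene, was above 0 (0.21 ± 0.31) with 1 tumour, T8, at 119 CPM.

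Over the Pomc-high set 9 of the 33 genes had all Rb1/Trp53/Crebbp tumours below all Rb1/Trp53 tumours and 0 had them above, while over all genes tested 5.83% were separated downwards and 3.90% upwards. Leaving out each of the 10 libraries in turn, Hk2, Egln3, Vegfa, Adm, Car9, P4ha2 and Ero1l passed the test in 10 of 10 fits, Pfkfb3 in 8, Slc2a1 in 5 and Eno2 in 2. Pfkfb3 missed the threshold without Rb1/Trp53/Crebbp T5 or T6 (adjusted p = 0.0705 and 0.0542), and Slc2a1 without Rb1/Trp53/Crebbp T5, T6 or T8 or Rb1/Trp53 T7 or T9 (adjusted p = 0.0505 to 0.0746). Eno2 passed only without Rb1/Trp53/Crebbp T8 or Rb1/Trp53 T2, and its adjusted p was otherwise 0.0618 to 0.103. When all 17 libraries shared 1 estimate of the spread, Eno2, Pfkfb3, Egln3 and P4ha2 missed the threshold (adjusted p = 0.0995, 0.0518, 0.137 and 0.0991), and Car9 did so in limma-voom (adjusted p = 0.0737).

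Some markers of other cell types differed with the genotype in this set, where 5.26% of all genes tested fell and 3.15% rose. The summed level of 11 endothelial genes was 26.0 to 73.5 CPM in Rb1/Trp53/Crebbp tumours and 60.8 to 101 CPM in Rb1/Trp53 tumours, and 2 of the 10 tested fell, Kdr and Ptprb. For 10 macrophage genes the sums were 28.6 to 189 CPM in Rb1/Trp53/Crebbp tumours and 109 to 345 CPM in Rb1/Trp53 tumours, and 1 of 10 fell, Cd68. Without a threshold, all 10 endothelial and all 10 macrophage genes tested had a log2 fold change below 0, against 47.9% of all genes. Their medians were -0.90 for the endothelial and -0.98 for the macrophage genes. The 6 melanotroph and corticotroph genes, Pomc among them, summed to 96518 to 235034 CPM in Rb1/Trp53/Crebbp tumours and 216177 to 326033 CPM in Rb1/Trp53 tumours. The sum of 7 astroglial genes reached 624 CPM in 1 Rb1/Trp53/Crebbp tumour, against 71.2 CPM at most in Rb1/Trp53 tumours. Of the genes tested, 1 of 4 skeletal muscle (Myh4), 1 of 5 melanotroph and corticotroph (Pcsk2) and 1 of 6 neuroendocrine genes (Chgb) fell, and 0 of 1 adipocyte, 0 of 1 erythroid, 0 of 1 lung epithelial, 0 of 2 thyroid follicle, 0 of 4 C-cell and 0 of 6 astroglial genes passed the test. The adipocyte genes Plin1 and Lep were at 0 in all 4 Rb1/Trp53/Crebbp tumours and the globin genes Hba-a1 and Hba-a2 at 0 in all 10 tumours. The part of these genes in the lower hypoxia genes was not tested.

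**Figure D1:**
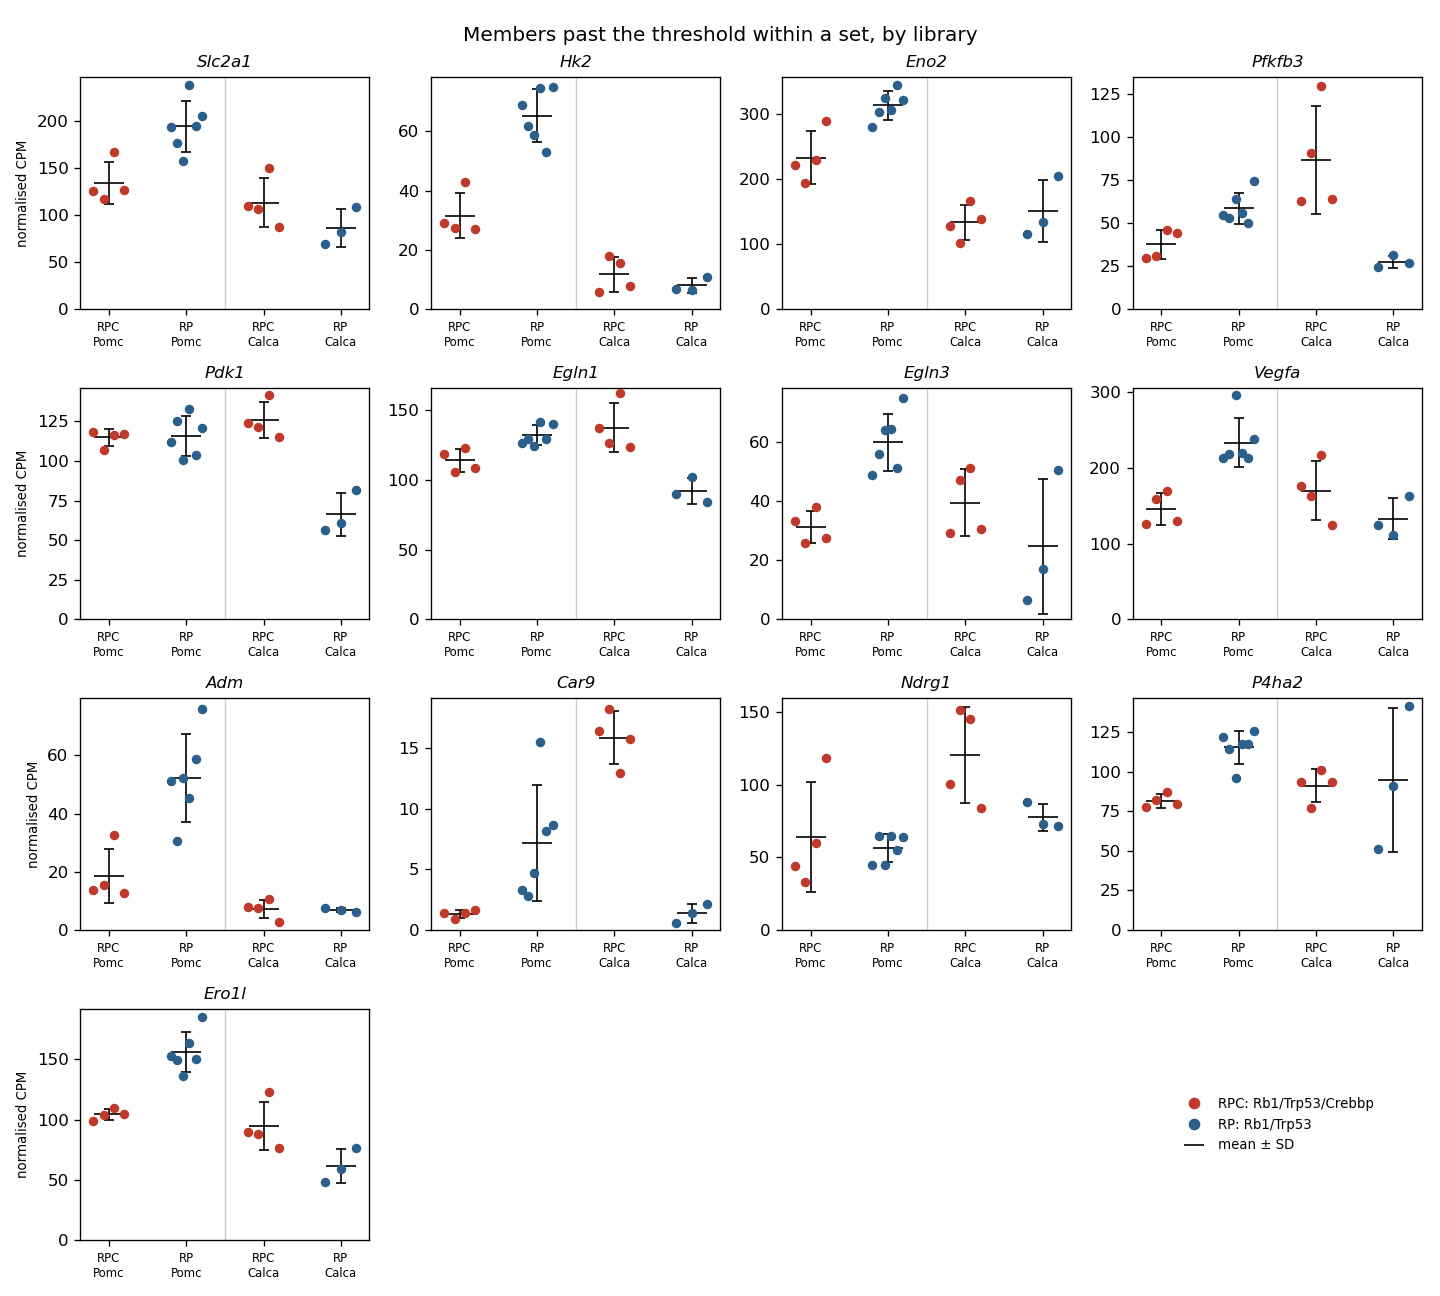
Normalised CPM (y axis, from 0) of the 13 genes past the threshold in at least 1 set, with Rb1/Trp53/Crebbp (RPC, red) left of Rb1/Trp53 (RP, blue) within the Pomc-high and Calca-high libraries; points are tumours, bars are the mean ± SD. Hk2, Egln3 and Vegfa are lower in the 4 Pomc-high Rb1/Trp53/Crebbp tumours than in all 6 Pomc-high Rb1/Trp53 tumours, while Car9, Pfkfb3 and Pdk1 are higher in the 4 Calca-high Rb1/Trp53/Crebbp tumours than in all 3 Calca-high Rb1/Trp53 tumours.

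In the Calca-high tumours 4 of the 33 genes had a log2 fold change below 0, against 51.5% of all genes tested. In the Pomc-high tumours 29 of the 33 had, against 47.9%. Of the 33 genes, 6 rose and 0 fell in Rb1/Trp53/Crebbp tumours relative to Rb1/Trp53 tumours, in a set where 19.1% of 14797 genes tested rose and 17.1% fell, so that the share of the 33 that rose was close to that of all genes. The genes that rose were Pfkfb3, Pdk1, Egln1, Car9, Ndrg1 and Ero1l. The median log2 fold change of the 33 genes was 0.51, against -0.018 over all genes tested.

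Car9 had 16.5, 18.3, 12.99 and 15.8 CPM in the 4 Rb1/Trp53/Crebbp tumours, and 0.593, 1.36 and 2.16 CPM in the 3 Rb1/Trp53 tumours. The lowest Rb1/Trp53/Crebbp tumour stood well above the highest Rb1/Trp53 tumour, and Car9 rose by 3.55 on the log2 scale (SE 0.38, adjusted p = 0.00118). Pfkfb3 had 62.4, 90.3, 129 and 64.1 CPM in the 4 Rb1/Trp53/Crebbp tumours, and 24.3, 31.2 and 26.9 CPM in the 3 Rb1/Trp53 tumours. The groups did not overlap, although T3 was far above the other Rb1/Trp53/Crebbp tumours (1.67 ± 0.27, adjusted p = 0.00363). Pdk1 had 124, 121, 142 and 115 CPM in the 4 Rb1/Trp53/Crebbp tumours, and 56.7, 60.8 and 81.9 CPM in the 3 Rb1/Trp53 tumours. It was separated as well (0.93 ± 0.14, adjusted p = 0.00256), and unlike Pfkfb3 it showed little spread among Rb1/Trp53/Crebbp tumours.

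Egln1 had 137, 126, 162 and 124 CPM in the 4 Rb1/Trp53/Crebbp tumours, and 89.9, 102 and 84.2 CPM in the 3 Rb1/Trp53 tumours. It rose with no overlap (0.59 ± 0.12, adjusted p = 0.00821), whereas its relative Egln3 did not pass the test (0.70 ± 0.62, adjusted p = 0.408). Ero1l had 89.9, 88.2, 123 and 76.9 CPM in the 4 Rb1/Trp53/Crebbp tumours, and 48.7, 59.4 and 76.4 CPM in the 3 Rb1/Trp53 tumours. The lowest Rb1/Trp53/Crebbp value lay just above the highest Rb1/Trp53 value (0.63 ± 0.19, adjusted p = 0.0356). Ndrg1 had 100.5, 151, 145 and 84.2 CPM in the 4 Rb1/Trp53/Crebbp tumours, and 88.5, 72.98 and 71.5 CPM in the 3 Rb1/Trp53 tumours. T4 of the Rb1/Trp53/Crebbp tumours fell within the Rb1/Trp53 range (0.64 ± 0.21, adjusted p = 0.0477). Ddit4 had 388, 415, 351 and 321 CPM in the 4 Rb1/Trp53/Crebbp tumours, and 134, 289 and 279 CPM in the 3 Rb1/Trp53 tumours. It did not overlap and did not pass the test (0.67 ± 0.25, adjusted p = 0.0703).

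None of the 14 glycolytic enzymes passed the test in the Calca-high set, though 2 of them, Pfkp and Eno1, were higher at an unadjusted p under 0.05, as were 24.0% of all genes tested. Their log2 fold changes ran from 0.12 (Gapdh) to 0.87 (Eno1), apart from Eno2 (-0.16 ± 0.22), and included Pfkp (0.79 ± 0.30, adjusted p = 0.0726), Pgk1 (0.74 ± 0.32, adjusted p = 0.109) and Ldha (0.51 ± 0.26, adjusted p = 0.161). The transporters Slc2a1 (0.40 ± 0.21), Slc2a3 (0.64 ± 0.39) and Slc16a3 (0.63 ± 0.76) did not pass it either. Hif1a averaged 85.1 ± 13.05 CPM (SD, n = 4) in Rb1/Trp53/Crebbp tumours and 70.1 ± 11.9 CPM (SD, n = 3) in Rb1/Trp53 tumours (0.29 ± 0.15, adjusted p = 0.167), and Epas1 had -0.40 ± 0.31. Of the targets that fell in the Pomc-high set, Vegfa (0.37 ± 0.20), Adm (0.075 ± 0.39) and P4ha2 (-0.037 ± 0.29) did not pass the test here.

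Slc2a1 had 109, 106, 149 and 87.3 CPM in the 4 Rb1/Trp53/Crebbp tumours of the Calca-high set, and 68.5, 81.8 and 108 CPM in the 3 Rb1/Trp53 tumours. Hk2 had 5.70, 17.9, 15.4 and 7.82 CPM in the 4 Rb1/Trp53/Crebbp tumours, and 6.76, 6.29 and 10.7 CPM in the 3 Rb1/Trp53 tumours. Vegfa had 176, 163, 217 and 124 CPM in the 4 Rb1/Trp53/Crebbp tumours, and 125, 111 and 163 CPM in the 3 Rb1/Trp53 tumours. The genotypes overlapped in all 3 genes, with T3 the highest Rb1/Trp53/Crebbp tumour for Slc2a1 and Vegfa and T2 for Hk2. Adm had 7.82, 7.64, 10.5 and 2.79 CPM in the 4 Rb1/Trp53/Crebbp tumours, and 7.53, 6.93 and 6.12 CPM in the 3 Rb1/Trp53 tumours, also with overlap.

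The count of genes that rose depended on single libraries. Without Rb1/Trp53 T4, 18 of the 33 genes rose and 0 fell (2817 of 15042 genes rose), among them 9 glycolytic enzymes, for example Pfkl (1.09 ± 0.14), Pgk1 (1.21 ± 0.22) and Eno1 (1.35 ± 0.19), the lactate exporter gene Slc16a3 (2.07 ± 0.45) and Egln3 (1.75 ± 0.44). Leaving out Rb1/Trp53 T1 instead, 4 of the 33 rose and 0 fell (2182 of 14968 genes rose). The median log2 fold change of the 33 was then 0.28, against 0.75 without T4. In that fit without T1, Pfkl (0.43 ± 0.30), Pgk1 (0.49 ± 0.30), Eno1 (0.63 ± 0.29), Slc16a3 (0.15 ± 0.57) and Egln3 (0.25 ± 0.45) did not pass the test. T4 was the highest of the 3 Rb1/Trp53 tumours for 26 of the 33 genes and T1 the lowest for 23. Slc16a3, for example, had 81.98, 59.9, 99.2 and 49.8 CPM in the 4 Rb1/Trp53/Crebbp tumours, and 10.1, 24.6 and 109 CPM in the 3 Rb1/Trp53 tumours. Egln3 had 29.3, 47.1, 51.1 and 30.5 CPM in the 4 Rb1/Trp53/Crebbp tumours, and 6.53, 17.04 and 50.5 CPM in the 3 Rb1/Trp53 tumours. In both genes T4 lay near or above the highest Rb1/Trp53/Crebbp tumour while T1 and T3 lay below them all. Leaving out each of the 7 libraries, the count was 4 to 18, and Car9, Pfkfb3, Pdk1 and Egln1 passed the test in 7 of 7 fits, against 2 for Ero1l and 1 for Ndrg1. Ero1l passed without Rb1/Trp53/Crebbp T4 or Rb1/Trp53 T4, with an adjusted p otherwise of 0.0542 to 0.101, and Ndrg1 without Rb1/Trp53/Crebbp T4, otherwise 0.0522 to 0.131. Over the 7 libraries DESeq2 called 10 of the 33, all higher, and 41.1% of all genes in either direction. Without Rb1/Trp53/Crebbp T2, Epas1 passed the test as lower (log2 fold change -0.73, adjusted p = 0.0309).

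In the Calca-high set 6 genes (Pfkfb3, Pdk1, Egln1, Car9, Ero1l and Ddit4) had all Rb1/Trp53/Crebbp tumours above all Rb1/Trp53 tumours and 0 had them below, and 22.1% of all genes tested were separated upwards and 22.3% downwards. More marker genes passed the test here than in the Pomc-high set, and so did more of all genes tested. Of all genes 17.1% fell and 19.1% rose here, against 5.26% and 3.15% in the Pomc-high set. The 6 thyroid follicle genes summed to 929 to 1299.6 CPM in Rb1/Trp53/Crebbp tumours and 2119 to 16826 CPM in Rb1/Trp53 tumours, and the 6 adipocyte genes to 6.53 to 10.2 CPM in Rb1/Trp53/Crebbp tumours and 40.1 to 225 CPM in Rb1/Trp53 tumours. Sums of the endothelial genes were 56.7 to 76.7 CPM in Rb1/Trp53/Crebbp tumours and 97.7 to 118 CPM in Rb1/Trp53 tumours, and those of the 5 C-cell genes, Calca among them, 35008 to 68017 CPM in Rb1/Trp53/Crebbp tumours and 118157 to 177201 CPM in Rb1/Trp53 tumours. Of the genes tested, 5 of 6 thyroid follicle, 5 of 5 adipocyte, 7 of 11 endothelial, 3 of 10 macrophage and 4 of 5 C-cell genes fell and 0 rose. Of the lung epithelial genes 3 of 5 fell and 1 rose (Sftpb), of the astroglial genes 2 of 6 fell (Aqp4 and S100b), of the neuroendocrine genes 5 of 6 fell, of the melanotroph and corticotroph genes 1 of 3 fell (Pcsk2) and 1 rose (Crhr1), and 0 of 8 skeletal muscle and 0 of 2 erythroid genes passed the test. The sums of the 8 skeletal muscle genes varied widely within each genotype. They were 31.3 to 621 CPM in Rb1/Trp53/Crebbp tumours and 56.4 to 1394 CPM in Rb1/Trp53 tumours. TMM factors were 1.09 to 1.17 in Rb1/Trp53/Crebbp libraries and 0.938 to 1.005 in Rb1/Trp53 libraries. The part of these differences in the hypoxia genes was not tested.

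**Figure D2:**
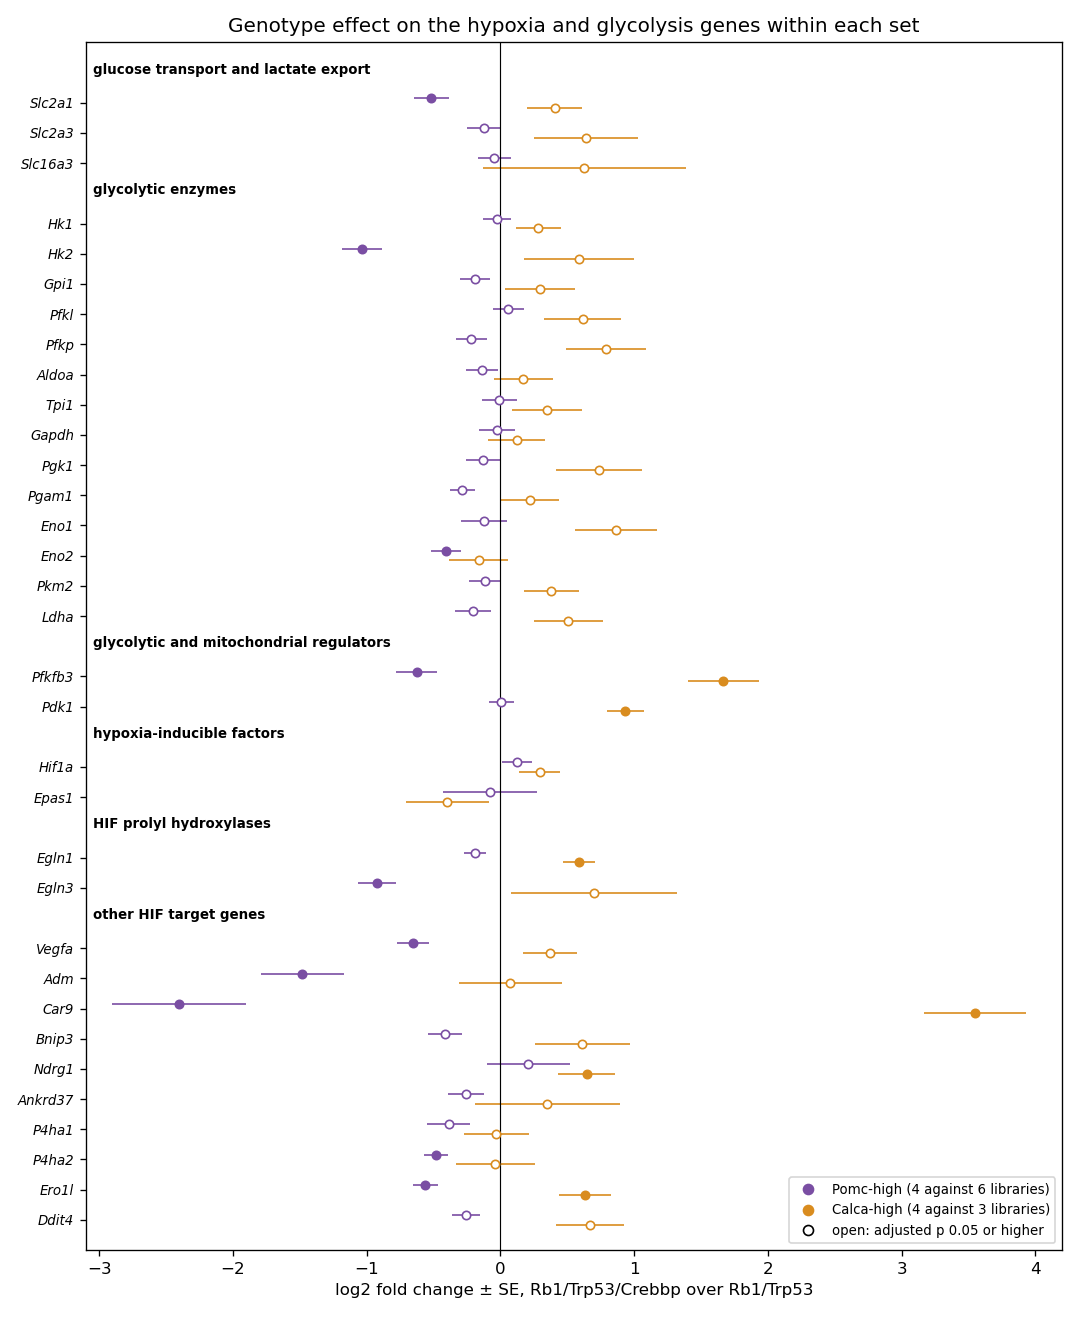
Log2 fold change ± SE (x axis) of the 33 genes, Rb1/Trp53/Crebbp over Rb1/Trp53, in the Pomc-high libraries (purple, 4 against 6) and the Calca-high libraries (orange, 4 against 3), in blocks by role; filled points have an adjusted p under 0.05. The 10 filled purple points lie below 0 and the 6 filled orange points above it, with Car9 at -2.40 and 3.55.

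Whether the genotype effect differed between the sets was tested directly, as the effect in the Calca-high tumours minus that in the Pomc-high tumours. The difference was above 0 for 12 of the 33 genes and below 0 for 0, against 12.8% of 15432 genes tested that were above 0 and 22.9% that passed in either direction. The 12 genes were Slc2a1, Hk2, Pfkp, Pfkfb3, Pdk1, Egln1, Vegfa, Adm, Car9, Bnip3, Ero1l and Ddit4, so each role except the alpha subunits was represented. The median difference over the 33 genes was 0.72, against -0.0061 over all genes tested.

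Car9 differed most among the 12, by 5.95 ± 0.73 (adjusted p = 0.00012), followed by Pfkfb3 with 2.30 ± 0.31 (adjusted p = 0.00023). Hk2 (1.64 ± 0.41) and Vegfa (1.03 ± 0.23) differed mainly by their fall in the Pomc-high set, and Pdk1 (0.93 ± 0.16) by its rise in the Calca-high set, where the log2 fold change in the other set was 0.0059. Pfkp (1.01 ± 0.30), Bnip3 (1.03 ± 0.36) and Ddit4 (0.93 ± 0.26) had not passed the test within either set. Pfkp, the platelet-type phosphofructokinase gene, had 207, 169.6, 237 and 248 CPM in the 4 Rb1/Trp53/Crebbp tumours, and 235 to 285 CPM with a median of 243 CPM in the 6 Rb1/Trp53 tumours of the Pomc-high set. In the Calca-high set Pfkp had 119, 106, 168 and 93.9 CPM in the 4 Rb1/Trp53/Crebbp tumours, and 51.1, 56.4 and 106 CPM in the 3 Rb1/Trp53 tumours. Its groups overlapped in both sets. Bnip3 had 226, 182, 254 and 203 CPM in the 4 Rb1/Trp53/Crebbp tumours, and 232 to 339 CPM with a median of 297 CPM in the 6 Rb1/Trp53 tumours of the Pomc-high set. In the Calca-high set Bnip3 had 161, 157, 204 and 108 CPM in the 4 Rb1/Trp53/Crebbp tumours, and 62.95, 79.2 and 171 CPM in the 3 Rb1/Trp53 tumours. Here too the groups overlapped in both sets. Ddit4 had 81.7, 77.99, 102 and 86.6 CPM in the 4 Rb1/Trp53/Crebbp tumours, and 92.9 to 121 CPM with a median of 102 CPM in the 6 Rb1/Trp53 tumours of the Pomc-high set, again with overlap.

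Hif1a (0.17 ± 0.19, adjusted p = 0.536) and Epas1 (-0.31 ± 0.52, adjusted p = 0.702) did not pass the test. Of 17 fits that each left out a library, Hk2, Pfkfb3, Pdk1, Egln1, Vegfa, Car9, Ero1l and Ddit4 passed in 17, Slc2a1 in 16, Pfkp in 14, Adm in 4 and Bnip3 in 3. Slc2a1 missed the threshold without Rb1/Trp53 T1 (adjusted p = 0.0558), and Pfkp without Rb1/Trp53/Crebbp T3 or Rb1/Trp53 T1 or T3 (adjusted p = 0.0616, 0.0753 and 0.0688). Adm passed without Rb1/Trp53/Crebbp T4 or T7 or Rb1/Trp53 T5 or T7, and Bnip3 without Rb1/Trp53/Crebbp T4 or Rb1/Trp53 T2 or T4, with an adjusted p otherwise of 0.0528 to 0.115 and 0.052 to 0.137. Without Rb1/Trp53 T4 of the Calca-high set 24 of the 33 genes passed, all above 0 (1824 of 15697 genes tested were above 0). Without Rb1/Trp53 T1 of that set 8 passed, all above 0 (1321 of 15644 genes tested were above 0).

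Car9, Pfkfb3 and Ero1l passed the test in both sets, lower in Pomc-high and higher in Calca-high Rb1/Trp53/Crebbp tumours. That is 3 of 33 genes, against 0.682% of the 13632 genes tested in both sets. Each of them missed the threshold in 1 set under at least 1 other setting. In the Pomc-high set Car9 did so in limma-voom (adjusted p = 0.0737). Pfkfb3 did so there in the joint fit of all libraries (adjusted p = 0.0518) and with the tumour number as a block (adjusted p = 0.114). In the Calca-high set Ero1l did so with that block (adjusted p = 0.0890). Of the fits that each left out a library, Pfkfb3 passed in 8 of 10 in the Pomc-high set. Ero1l passed in 2 of 7 in the Calca-high set, and Car9 in all fits of both sets. Without a threshold, 25 of the 33 had a log2 fold change below 0 in the Pomc-high and above 0 in the Calca-high set, against 21.8% of all genes, 4 were below 0 in both, 4 were above 0 in both and 0 were the other way. In Car9 the levels crossed over. Calca-high Rb1/Trp53/Crebbp tumours had 12.99 to 18.3 CPM and Pomc-high Rb1/Trp53 tumours 2.76 to 15.6 CPM. Both groups lay above the Pomc-high Rb1/Trp53/Crebbp tumours (0.888 to 1.62 CPM) and the Calca-high Rb1/Trp53 tumours (0.593 to 2.16 CPM). Of the Pomc-high Rb1/Trp53 tumours only T7, at 15.6 CPM, reached the range of the Calca-high Rb1/Trp53/Crebbp tumours. Over all 17 libraries together 0 of the 33 genes passed the test with edgeR or limma-voom, which called 3.86% and 3.83% of 14338 genes in either direction, and DESeq2 called 1 lower, Adm, where it called 9.74%. At an unadjusted p under 0.05 in edgeR, 2 of the 33, Adm and P4ha2, and 10.3% of all genes were lower.

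**Figure D3:**
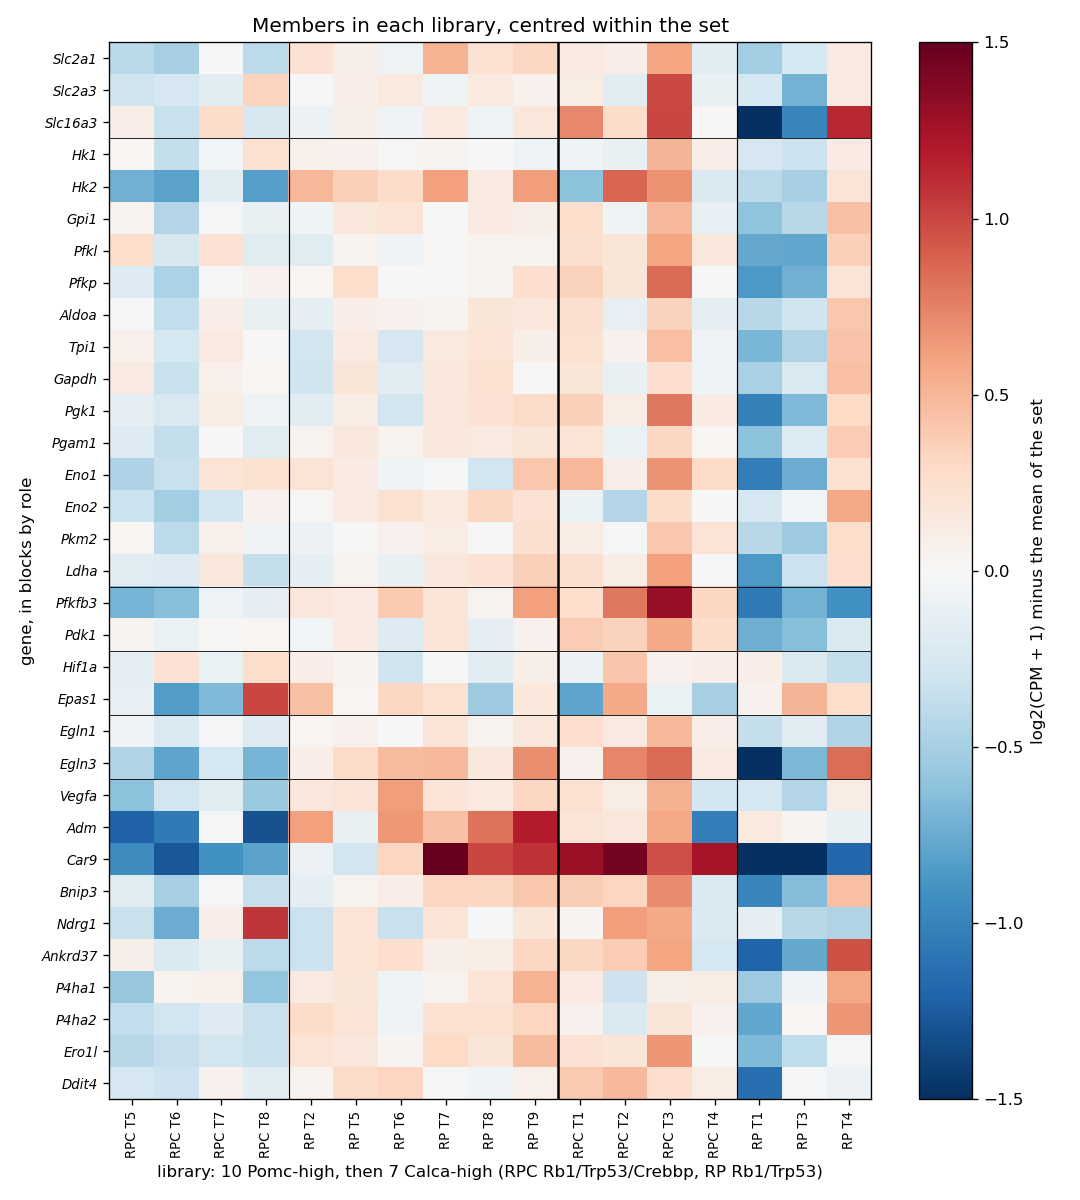
Each cell is log2(CPM + 1) of a gene (rows, in blocks by role) in a library (columns) minus the mean of its set, with red above and blue below the mean; the colour scale stops at 1.5 in either direction. Blue prevails in the 4 Pomc-high Rb1/Trp53/Crebbp libraries (RPC T5 to T8) and in Calca-high Rb1/Trp53 T1 and T3 (RP T1 and RP T3), while RP T4 is red for most genes.

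The 33 genes varied within a group as well. The median coefficient of variation over the genes was 16.1% in Pomc-high Rb1/Trp53/Crebbp, 13.5% in Pomc-high Rb1/Trp53, 20.4% in Calca-high Rb1/Trp53/Crebbp and 35.1% in Calca-high Rb1/Trp53 tumours. Single libraries led many genes at once. Among Pomc-high Rb1/Trp53/Crebbp tumours T7 was the highest for 19 genes and T6 the lowest for 21, among Calca-high Rb1/Trp53/Crebbp tumours T3 was the highest for 26, and among Pomc-high Rb1/Trp53 tumours T9 was the highest for 15. Eno1 counts are uncertain because the near-identical gene Gm5506 is counted beside it: Gm5506 had 97.3 to 118 CPM in Rb1/Trp53/Crebbp and 40.1 to 106 CPM in Rb1/Trp53 tumours of the Calca-high set and did not pass the test (0.73 ± 0.31, adjusted p = 0.107), with a value close to that of Eno1. Pseudogene copies make the counts of Gapdh, Ldha, Pgk1, Pgam1, Tpi1 and Aldoa uncertain in the same way, and Pkm2 is the symbol under which the tables list the whole pyruvate kinase gene.

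The genes also differed in level between the sets. Averaged over the genotypes, 19 of the 33 were lower and 4 were higher in Calca-high than in Pomc-high libraries, where 31.5% and 32.9% of 15432 genes were. Of the 14 glycolytic enzymes 10 were lower and 1, Ldha, was higher. Ddit4, Epas1 and Ndrg1 were the other genes that were higher. The sets did not overlap for 8 lower genes (Slc2a3, Hk2, Gpi1, Pfkl, Pfkp, Pgam1, Adm and P4ha1) and 1 higher gene (Ddit4), against 22.6% of all genes in either direction.

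Slc2a3 had 2.92 to 11.7 CPM (median 4.92) in the 7 Calca-high libraries and 25.8 to 40.8 CPM (median 32.8) in the 10 Pomc-high ones (log2 difference -2.55 ± 0.20, adjusted p = 5.38e-09). Hk2 had 5.70 to 17.9 CPM (median 7.82) in the 7 Calca-high libraries and 26.9 to 74.9 CPM (median 55.9) in the 10 Pomc-high ones (-2.23 ± 0.21, adjusted p = 1.18e-07), and Adm had 2.79 to 10.5 CPM (median 7.53) in the 7 Calca-high libraries and 12.8 to 76.03 CPM (median 38.9) in the 10 Pomc-high ones (-2.15 ± 0.27, adjusted p = 3.02e-06). These 3 genes had the largest differences of the 33. Ddit4 went the other way, with 134 to 415 CPM (median 321) in the 7 Calca-high libraries and 77.99 to 121 CPM (median 98.9) in the 10 Pomc-high ones (1.62 ± 0.13, adjusted p = 6.37e-09). Ldha, which makes lactate from pyruvate, overlapped at 499.5 to 1389.7 CPM (median 982) in the 7 Calca-high libraries and 521 to 858 CPM (median 655) in the 10 Pomc-high ones (0.46 ± 0.14, adjusted p = 0.00788). Hif1a did not pass the test, with 60.2 to 104 CPM (median 80.9) in the 7 Calca-high libraries and 59.6 to 88.5 CPM (median 74.5) in the 10 Pomc-high ones (0.053 ± 0.095, adjusted p = 0.643), while Epas1, the alpha subunit typical of endothelium and some epithelia, was higher in the Calca-high set (1.05 ± 0.26). Car9 (0.61 ± 0.34) and Pfkfb3 (0.061 ± 0.15), whose genotype effects were opposite in the sets, did not pass this test.

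**Figure D4:**
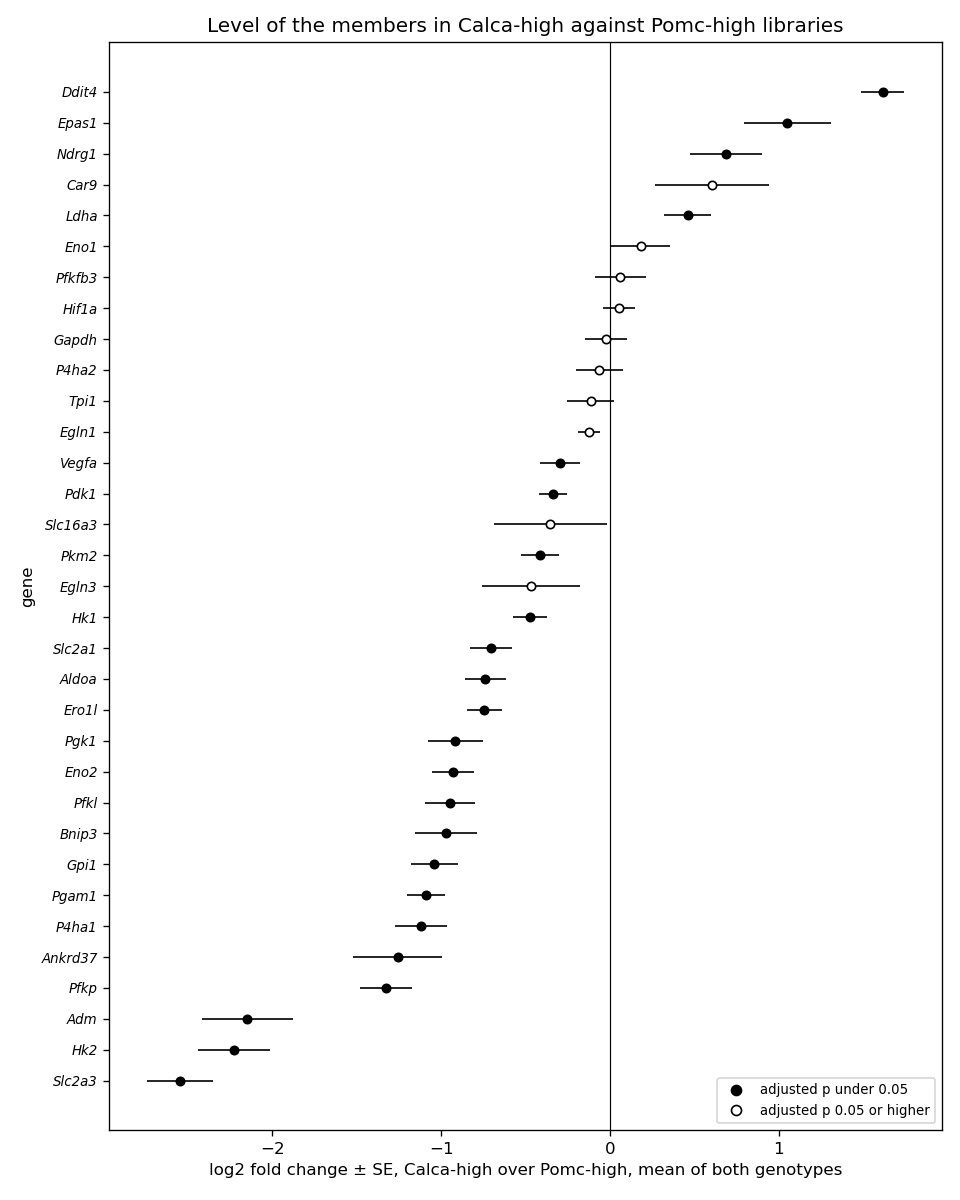
Log2 difference ± SE (x axis), Calca-high over Pomc-high and averaged over both genotypes, of the 33 genes sorted by its size; filled points have an adjusted p under 0.05. Slc2a3 (-2.55), Hk2 (-2.23) and Adm (-2.15) lie lowest and Ddit4 (1.62) highest.

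Other genes of the same pathways were taken from lists of 32 glycolysis-related genes, 7 pentose phosphate genes, 12 genes of the HIF machinery and 35 further HIF targets. In the Pomc-high set, where 5.26% of all genes fell and 3.15% rose, 9 of 32 further targets tested fell and 0 rose, among them the chemokine receptor gene Cxcr4 (-1.27 ± 0.20, adjusted p = 0.00274), the collagen cross-linking enzyme gene Lox (-1.41 ± 0.23), the lysyl hydroxylase gene Plod1 (-0.52 ± 0.086) and the glycogen synthase gene Gys1 (-0.56 ± 0.098). Lox, for example, had 20.04, 16.9, 13.3 and 33.8 CPM in the 4 Rb1/Trp53/Crebbp tumours, and 42.4 to 69.3 CPM with a median of 57.1 CPM in the 6 Rb1/Trp53 tumours, with no overlap. Of 30 glycolysis-related genes tested 3 fell and 0 rose, with the fructose bisphosphatase gene Fbp2 (-1.80 ± 0.32) first by adjusted p and beside it Fbp1 (-1.82 ± 0.45) and the lactate transporter gene Slc16a1 (-0.56 ± 0.14), and 1 of 12 machinery genes fell, Arnt (-0.35 ± 0.088, adjusted p = 0.029). Of the 7 pentose phosphate genes 0 passed the test.

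In the Calca-high set 12 of 35 further targets rose and 4 fell, where 19.1% of all genes rose and 17.1% fell. Wsb1, a ubiquitin ligase subunit, had 124, 118, 182 and 118 CPM in the 4 Rb1/Trp53/Crebbp tumours, and 33.6, 36.97 and 43.3 CPM in the 3 Rb1/Trp53 tumours (1.85 ± 0.18, adjusted p = 0.000972). The lipoprotein receptor gene Vldlr (2.03 ± 0.23) and Car12, another carbonic anhydrase (2.91 ± 0.42), also rose, and Selenbp1 fell (-0.93 ± 0.17). Of the machinery 5 of 12 rose and 1 fell. Arnt2, a partner of the alpha subunits, had 21.9, 26.9, 28.5 and 31.1 CPM in the 4 Rb1/Trp53/Crebbp tumours, and 8.63, 5.34 and 7.58 CPM in the 3 Rb1/Trp53 tumours (1.93 ± 0.20, adjusted p = 0.00102). Whole-gene counts of Crebbp (0.60 ± 0.12) and Ep300 (0.78 ± 0.085), the asparagine hydroxylase gene Hif1an (0.38 ± 0.10) and the prolyl hydroxylase gene Egln2 (0.60 ± 0.16) rose too, and Cited4, which encodes a CBP-binding protein, fell (-1.08 ± 0.17).

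Of the glycolysis-related genes in this set 8 of 30 were lower, 2 were higher and 20 did not pass the test, beside the same 17.1% lower and 19.1% higher over all genes, and 4 of 7 pentose phosphate genes (G6pdx, Pgd, Taldo1 and Tkt) were lower and 0 higher. The genes that rose were Pfkfb2 (0.34 ± 0.084), a relative of Pfkfb3, and the monocarboxylate transporter gene Slc16a7 (0.59 ± 0.19). Those that fell included the pyruvate carrier gene Mpc2, listed as Brp44 (-1.07 ± 0.097, adjusted p = 0.00078), the pyruvate dehydrogenase kinases Pdk2 (-1.29 ± 0.15) and Pdk3 (-0.51 ± 0.096), and G6pc3, a glucose phosphatase (-0.46 ± 0.079). Pdk1 and Pdk2, which act on the same enzyme, thus moved in opposite directions. Pdk2 had 19.2 to 23.6 CPM in Rb1/Trp53/Crebbp and 43.5 to 64.05 CPM in Rb1/Trp53 tumours, and the tumours of the genotypes did not overlap. The genotype effect differed between the sets upwards for 15 and downwards for 0 of 35 further targets, upwards for 6 and downwards for 0 of 12 machinery genes, upwards for 3 and downwards for 7 of 30 glycolysis-related genes, and upwards for 0 and downwards for 4 of 7 pentose phosphate genes. Over all genes it differed upwards for 12.8% and downwards for 1549 of 15432.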

How the data were processed

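TRIzol RNA, enriched for poly(A) on oligo-dT beads, went into NEBNext Ultra RNA libraries, per the labels' protocols. The submitters' processing notes name mm9 as the build and HTSeq 0.6.1, TopHat2 2.0.12 and bcl2fastq 1.8.2 as tools. For annotation, strand setting and read filters the sources used here give nothing. The authors deposited raw counts per gene, 1 table for each of 17 tumours. The 5 summary rows were left out: reads with no feature made up 11.7% to 21.7%, reads not aligned uniquely 8.20% to 18.5%, ambiguous reads 0.56% to 0.843% and reads on genes 64.5% to 78.3%. No table repeated another of its genotype (64 pairs, chi-square per degree of freedom 8.30 or higher among genes summing to 10 counts or more).

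Counts were tested with edgeR 4.0.16 in R 4.3.3 (filterByExpr, TMM, robust quasi-likelihood F test, Benjamini-Hochberg over all genes tested, threshold 0.05), separately in the Pomc-high and Calca-high sets and over all 17 libraries. The interaction and the set difference came from 1 fit of 4 groups of genotype by set. Each SE was obtained by dividing the log2 fold change by the root of its F value. Alternatives were other scalings and filters, DESeq2 1.42.0, limma-voom (limma 3.58.1), a joint fit, a block for the tumour number, and leaving out each library. Lists matched 197 of 197 entries, 4 through a synonym in a RefSeq table. Promoters came from RefSeq (GRCm38.p6), with coordinates of that build. Figures used matplotlib 3.10.9.

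The 33 genes, the sets and the lists were chosen with earlier results of these data known. Values by library (lowest, median and highest for the 6 Pomc-high Rb1/Trp53 tumours) are given for each of the 33 in the set where it passed the threshold and, for genes past it in the interaction only, in both sets; of the other pathway genes, up to 6 per set and direction with the smallest adjusted p are named, except 1 that is not reported here. Hif1a, Epas1, Crebbp and Ep300 are named whatever their test. Arnt, Hif1an, Egln2, Gm5506, Fbp1, Slc16a1, Pfkfb2, Slc16a7, the pentose phosphate genes and the single marker genes were added to the named genes with their values in view.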

Additional observations from a re-analysis of the deposited data

Results flagged for a closer look

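In 99 checks, of the 33 genes in each of 3 groups of 4, 6 and 4 tumours, 6 had a highest or lowest tumour far from the others, where chance gives about 1 in 20. The group of 3 Calca-high Rb1/Trp53 tumours was not checked. Among Pomc-high Rb1/Trp53/Crebbp tumours T7 was far above the rest for Hk2 (42.9 CPM, next 28.9) and Adm (32.6 CPM, next 15.3), and T6 was below the rest for Pdk1 (107 CPM, next 117). Both high values lie towards the Rb1/Trp53 tumours, and without T7 the log2 fold changes were -1.22 for Hk2 and -1.89 for Adm. Among Pomc-high Rb1/Trp53 tumours T6 stood out for Vegfa (296 CPM, next 238). In the Calca-high Rb1/Trp53/Crebbp tumours T3 was high for Pfkl (203 CPM, next 160.0) and T2 low for P4ha1 (112 CPM, next 148).

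The genotype effect differed between the sets, Calca-high minus Pomc-high on the log2 scale, for 12 of the 33 genes by a test of the difference: Car9 (5.95 ± 0.73), Pfkfb3 (2.30 ± 0.31), Hk2 (1.64 ± 0.41), Adm (1.56 ± 0.51), Ero1l (1.20 ± 0.20), Vegfa (1.03 ± 0.23), Bnip3 (1.03 ± 0.36), Pfkp (1.01 ± 0.30), Ddit4 (0.93 ± 0.26), Pdk1 (0.93 ± 0.16), Slc2a1 (0.93 ± 0.25) and Egln1 (0.79 ± 0.13). The sets were split by hormone gene, so the difference cannot be told apart from anything else that differs between them.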

How the results depend on the processing

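Under DESeq2 size factors, upper-quartile scaling, no low-count filter and a filter on a minimum CPM, the counts of called genes, over all genes and over the 33, stayed within 1.5 times of those reported. DESeq2 called 1917 genes in the Pomc-high set (edgeR 1179) and 1397 over all libraries (edgeR 554), of the 33 genes 10 higher in the Calca-high set and 1 lower over all libraries, and the set as a term of the fit over all libraries gave 2575 genes and 0 of the 33. In 1 fit of all libraries in 4 groups 6 of the 33 were lower in the Pomc-high set, where 802 of 15432 genes were. In the same fit 10 of the 33 were higher in the Calca-high set, where 2853 of 15432 genes were. The tumour numbers do not pair the samples: same-numbered tumours correlated between genotypes at 0.22 down to -0.14 in the Pomc-high set and at 0.12, 0.01 and -0.16 in the Calca-high set. With the number as a replicate block, which costs degrees of freedom, 354 genes were called in the Pomc-high set (6 of the 33 lower), 2700 in the Calca-high set (4 of the 33 higher and 1 lower), 1253 in the interaction (5 of the 33 higher) and 1928 between the sets (1 of the 33 higher and 2 lower).

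Some values near 0 changed sign, each without passing the test on either side. These were Tpi1 in the Pomc-high set under limma-voom (0.000897), Pdk1 there in the fit of 4 groups (-0.012), and in the Calca-high set Adm (-0.11), P4ha1 (0.026) and P4ha2 (0.072) under limma-voom and Adm (-0.12), P4ha1 (0.13) and P4ha2 (0.15) under the block. The cause was not tested.

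Leaving out each library, the called genes numbered 752 to 1214 in the Pomc-high set (752 without Rb1/Trp53/Crebbp T7), 3588 to 5312 in the Calca-high set, 2487 to 3849 in the interaction, 9478 to 10021 between the sets and 285 to 1010 over all libraries (285 without Rb1/Trp53/Crebbp T4 and 1010 without Rb1/Trp53/Crebbp T5). Of the 33, 7 to 11 were lower in the Pomc-high set, 4 to 18 higher and 0 to 1 lower in the Calca-high set, 8 to 24 higher in the interaction, 18 to 23 lower and 4 to 5 higher between the sets, and 0 to 1 lower over all libraries. Ranges of log2 fold changes that crossed 0 were, in the Pomc-high set, Slc16a3 -0.16 to 0.043, Hk1 -0.11 to 0.069, Pfkl -0.025 to 0.14, Tpi1 -0.063 to 0.070, Gapdh -0.084 to 0.067, Pdk1 -0.035 to 0.050, Epas1 -0.66 to 0.14 and Ndrg1 -0.27 to 0.42; in the Calca-high set, Gapdh -0.056 to 0.43, Eno2 -0.32 to 0.11, Adm -0.18 to 0.34, Ankrd37 -0.027 to 1.39, P4ha1 -0.26 to 0.31 and P4ha2 -0.33 to 0.37; and in the interaction, Gapdh -0.077 to 0.47 and Epas1 -0.69 to 0.22. Without Rb1/Trp53 T4, Ankrd37 passed the test in the Calca-high set, and with 3 or fewer tumours in a group 1 tumour can decide a call. Depth limits Car9 most, with 12 counts in its lowest library.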
